A study of Mus musculus with 419 samples.

Results

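Of 419 single mouse embryonic stem cells, the 42 with the highest summed expression of basement membrane genes were set against the 105 with the lowest. The cells were chosen by a score of 6 genes, Lama1, Lamb1, Lamc1, Col4a1, Col4a2 and Sparc. For each gene the deposited values of all its transcript rows and both alleles were summed and given per 1000000 of the cell's total, the scale of every level below. Each was divided by its mean over the 419 cells, and the 6 were averaged. The other 272 cells lay between the groups and entered neither.

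All cells, high and low alike, came from 1 female hybrid line, F1-21.6, with 1 chromosome set from strain 129 and 1 from CAST. They were grown on laminin-511 without feeder cells, in medium with serum and leukemia inhibitory factor, and are described as cells in G1. No treatment or genotype separates the groups. RNA of single cells was sequenced by RamDA-seq, which covers total RNA along whole transcripts. Separate cultures are not named, and all cells therefore count as 1 sample: no p-value or standard error was made from cells, and spread is given as the range over cells and over 5 sequencing lanes, which are not replicates.

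A basement membrane is a thin sheet of laminin trimers and type IV collagen, joined by nidogen and perlecan, on which epithelial cells rest. In the early mouse embryo the primitive endoderm and one of its descendants, the parietal endoderm, secrete much of it, and GATA and SOX transcription factors mark those cells. The comparison asks whether genes of primitive endoderm follow the basement membrane genes in cultured stem cells.

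The score ran from 0.169 to 9.93, with a median of 0.804. The last cell inside the high group had a score of 1.4225 and the first outside it 1.4135, so that edge cuts through a continuous range. The last cell inside the low group had 0.61253 and the first outside it 0.61314. The high cells had a median score of 1.88, against 0.498 in the low cells, and 11 of the 42 reached 3 or more. The 5 lanes held 12, 5, 7, 9 and 9 high cells, against 19, 14, 27, 19 and 26 low cells.

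Col4a1 and Col4a2, which encode the chains of the most widespread type IV collagen, lie head to head on chromosome 8. Their promoter windows (Col4a1, chr8:11312777-11313076, minus strand; Col4a2, chr8:11312555-11312854, plus strand) are shown because they overlap and because the levels of this pair followed each other most closely of the 6 genes. The sequences are RefSeq's, build GRCm38.p6, from 250 bases before to 50 after each start, 5′ to 3′. Capitals mark the 78 bases that both windows hold, as reverse complements of each other.
Col4a1: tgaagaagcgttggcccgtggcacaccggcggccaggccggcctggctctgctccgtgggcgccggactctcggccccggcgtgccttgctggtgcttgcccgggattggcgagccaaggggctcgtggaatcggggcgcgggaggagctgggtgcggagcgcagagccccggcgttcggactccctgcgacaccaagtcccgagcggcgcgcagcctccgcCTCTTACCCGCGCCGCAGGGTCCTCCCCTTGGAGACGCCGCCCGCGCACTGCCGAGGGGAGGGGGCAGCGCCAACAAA
Col4a2: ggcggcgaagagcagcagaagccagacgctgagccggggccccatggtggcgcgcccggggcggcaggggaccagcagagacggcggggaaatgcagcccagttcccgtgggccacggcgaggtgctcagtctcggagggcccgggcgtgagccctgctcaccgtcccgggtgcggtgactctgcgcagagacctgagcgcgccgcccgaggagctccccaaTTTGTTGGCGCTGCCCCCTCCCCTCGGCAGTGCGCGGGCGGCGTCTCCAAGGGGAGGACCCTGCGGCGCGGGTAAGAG
The annotated starts lie 21 bases apart and the transcripts overlap there. Whether the authors' counting used strand was not given in the sources used here, so reads from that short overlap may be assigned to either gene.

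The levels of the 6 genes set the ranking, so their differences between the groups are a description. Col4a2 had a lowest, median and highest level of 10.5, 120 and 1018 in the high cells, against 0, 5.86 and 35.7 in the low cells, and the log2 ratio of group means was 4.83. Col4a1 had 16.5, 159 and 1562 in the high cells, against 0, 11.1 and 64.7 in the low cells, a log2 ratio of 4.33. The collagen genes thus separate the groups most, with some overlap at the edges. Sparc, a secreted collagen-binding protein, had a median of 377 in the high cells and 101.8 in the low cells (log2 ratio 2.01). The laminin chain genes Lamb1 and Lamc1 had medians of 264 and 655 in the high cells, against 85.0 and 378 in the low cells (log2 ratios 1.81 and 0.76). Lama1, the laminin alpha1 chain, differs in kind: its mean was 255 in the high cells and 97.0 in the low cells, but its median was 43.8 in the high cells and 72.7 in the low cells, and the high cells ran from 0 to 1144.

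**Figure D1:**
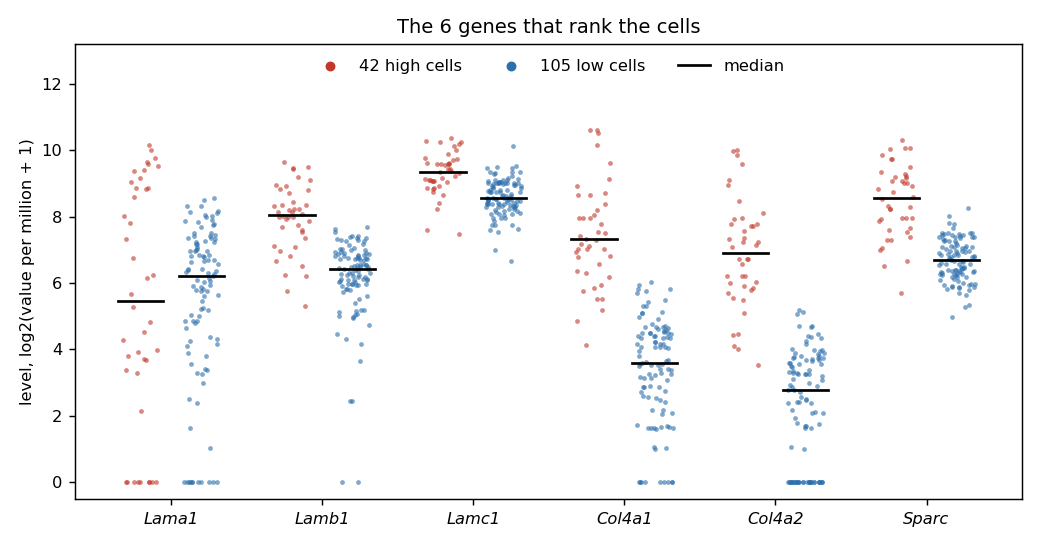
Level of each of the 6 ranking genes, as log2(value per 1000000 + 1), with 1 point per cell for the 42 high cells (red, left) and the 105 low cells (blue, right); black bars are medians. Col4a1 and Col4a2 are the farthest apart, while Lama1 spreads over the whole range in the high cells, with a median of 43.8 against 72.7 in the low cells.

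Each gene was then read between cells ranked on the other 5, a measure the ranking did not use. Col4a2 had a median of 88.6 in the high cells of that ranking and 8.54 in its low cells, with a log2 ratio of means of 4.10 (2.74 to 4.98 over the lanes). Col4a1 had 129 in the high cells and 16.0 in the low cells, a log2 ratio of 3.82 (2.42 to 4.34). The ratios were 1.44 for Sparc (0.57 to 1.82), 1.37 for Lamb1 (0.66 to 1.81) and 0.53 for Lamc1 (0.33 to 0.63). These 5 genes were higher in the high cells in all 5 lanes. Lama1 went the other way: its median was 16.7 in the 42 cells highest for the other 5 genes and 125 in the 105 lowest, with a log2 ratio of means of -0.70, below 0 in all 5 lanes (-1.32 to -0.06). Set against the 105 highest cells in place of 42, the Lama1 ratio changed sign, to 0.21.

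The deposited data hold 1 table per allele, so cells were also ranked on the 129 table and read in the CAST table, and the reverse. In cells ranked on 129, the CAST values of Col4a1 averaged 173 in the high cells and 14.4 in the low cells, a log2 ratio of 3.58. In cells ranked on CAST, the 129 values of Col4a1 averaged 120 in the high cells and 6.94 in the low cells, a ratio of 4.11. All 6 genes had ratios above 0 in all 5 lanes both ways, with Lama1 at 0.91 and 0.96, and 33 and 34 of the 42 high cells were shared with the ranking on both tables. Each ranking included the other allele of the gene that was read, so a ratio above 0 was partly built in. The reading from the other 5 genes above did not use the gene's own values. How reads without allele information were divided between the tables was not given in the sources used here, so the 2 readings may share some reads.

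Over the 419 cells, Spearman's correlation of Col4a1 with Col4a2 was 0.79, the highest of the pairs among the 6 genes, and it was 0.74 without the 42 high cells. Sparc followed with Col4a2 at 0.43. Lama1 correlated with Lamc1 at 0.34 but at -0.13 with Col4a2 and -0.19 with Sparc. These values describe cells of 1 sample that share a scaling to a common total. By allele, Col4a1 and Col4a2 correlated at 0.58 when both were read on the 129 chromosome and at 0.73 when both were read on CAST. Between opposite chromosomes the values were 0.48 for Col4a1 of 129 with Col4a2 of CAST and 0.47 for Col4a1 of CAST with Col4a2 of 129. Without the 42 high cells the same-chromosome values were 0.50 and 0.67, and the opposite ones 0.38 and 0.36. Same-chromosome values stayed above opposite-chromosome values without the high cells.

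**Figure D2:**
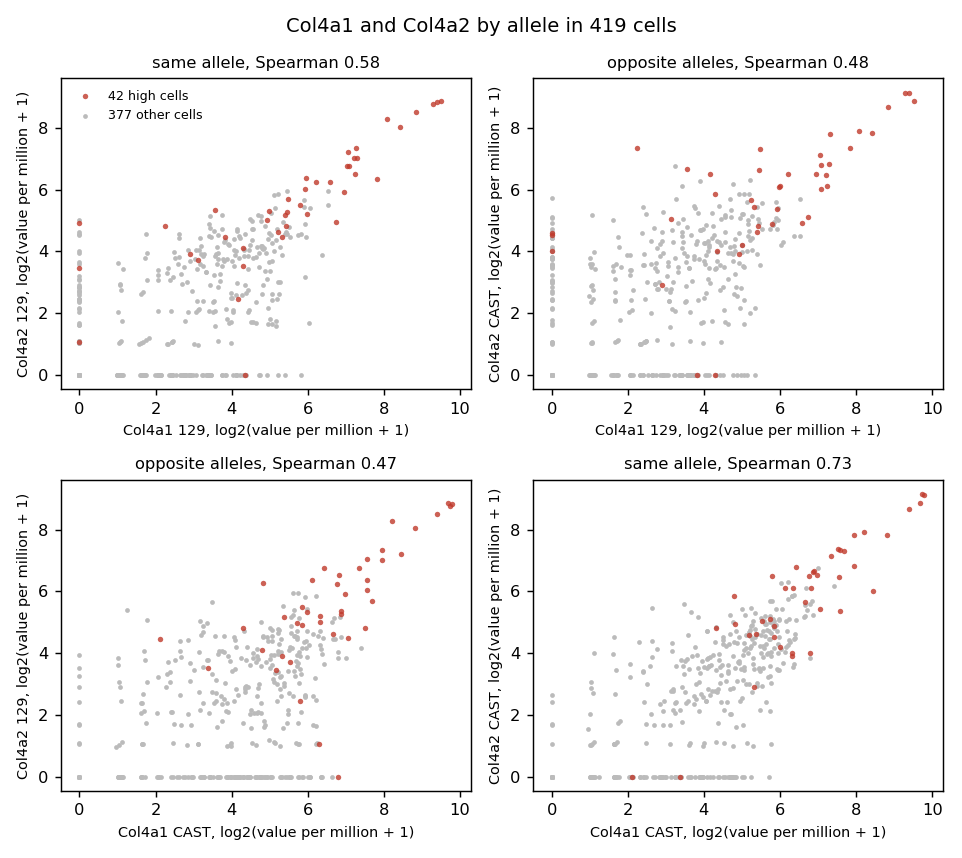
Col4a1 (horizontal) against Col4a2 (vertical) in 419 cells, read on each combination of the 129 and CAST alleles, as log2(value per 1000000 + 1); red points are the 42 high cells and grey points the other 377. Points lie closer to a line when both genes are read on the same allele (Spearman 0.58 and 0.73) than on opposite alleles (0.48 and 0.47).

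Across all other genes the contrast was wide and leaned upward. A gene was called higher when its mean in the high cells was at least 1.5 times that in the low cells and the ratio was above 1 in each of the 5 lanes, and called lower in the mirror case; it entered with a mean of at least 20 over the 419 cells and a value above 0 in at least 10% of them. Of 6572 genes that entered, 763 (11.6%) were called higher and 395 (6.01%) lower. The median log2 ratio of all of them was -0.03, with quartiles of -0.27 and 0.29. With group medians in place of means, a change added after the data were seen, 581 were higher and 492 lower. Of the 763 genes, 48 had a mean under 20 in the cells of neither group, so they entered through the high or low cells and had to differ.

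The 42 high cells were of unlike kinds, which bears on each count below. Of the 42, 26 had Lama1 under its median over all 419 cells (180) and 16 at or above it. This split was made after these values were seen. Lama1 is itself a ranking gene, so high cells with little of it reached their score through the other ranking genes. The split is therefore also a split by score, with medians of 2.56 in the 26 and 1.57 in the 16. The highest score in the 16 was 2.01. Contrasts between the 26 and the 16 cannot separate Lama1 from the score. All 18 of the highest scores belonged to the 26, and the first of the 16 ranked 19. Krt8, a keratin of simple epithelia, had a median of 1852 in the 26 and 4.88 in the 16, against 3.45 in the low cells. Pou5f1, the pluripotency factor OCT4, had medians of 37.5 in the 26 and 335 in the 16, against 295 in the low cells. Sox2 and Nanog, its partners in the pluripotency network, had medians of 2.16 and 2.14 in the 26 and of 59.4 and 259 in the 16, against 77.2 and 273 in the low cells. Pou5f1 was under 100 in 19 of the 26 and in none of the 16, against 2 of the 105 low cells. The 26 were not alike, however: 4 of them had Pou5f1 of at least 100 with Krt8 under 100, as did 15 of the 16 and 101 of the low cells. Set alone against the low cells, the 16 gave 135 genes called higher (2.05%) and 91 called lower (1.38%), of which 82 and 40 are among the 763 and 395.

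**Figure D3:**
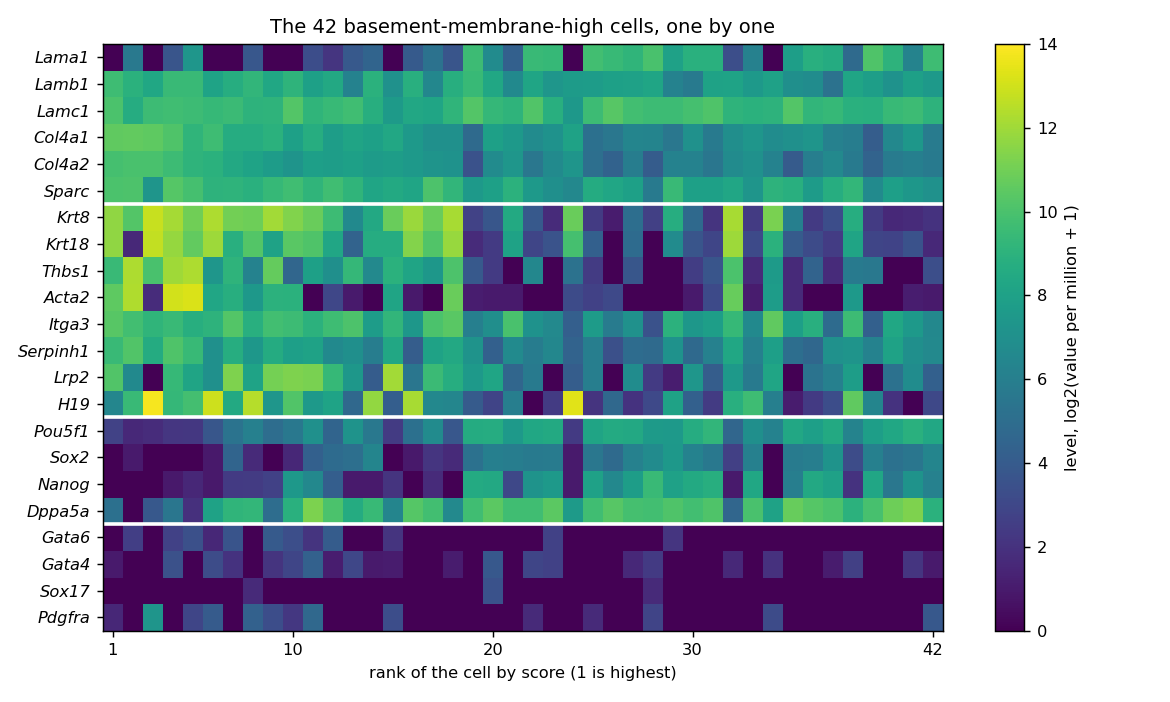
Levels in each of the 42 high cells, ordered by score from left to right, as log2(value per 1000000 + 1) in color; rows are the 6 ranking genes, then genes called higher with H19, then pluripotency genes, then primitive endoderm regulators. Cells 1 to 18 have Lama1 under 180 and mostly low Pou5f1 and Sox2 with high Krt8, and most cells after them show the reverse, while Gata6, Gata4, Sox17 and Pdgfra stay low (at most 25.1 apart from Pdgfra at 158 in cell 3).

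Of 38 primitive endoderm genes listed, 10 entered, and these did not follow as a list. Of 12 regulators, 2 passed the entry limit. Sall4, which primitive endoderm shares with pluripotent cells, was called lower, with a lowest, median and highest level of 6.10, 388 and 913 in the high cells, against 137.4, 557 and 1028 in the low cells (log2 ratio -0.67). Fgfr2, a receptor through which FGF acts on primitive endoderm, had a median of 41.3 in the high cells and 52.9 in the low cells (log2 ratio -0.40) and was not called. In the 16 cells with higher Lama1, Sall4 was at -0.05, while Fgfr2 was called lower, at -1.98. The median of Fgfr2 was 8.84 in the 16 and 59.9 in the 26. The 10 others were below the limit, and 9 of them had a median of 0 in the high cells, as did 9 in the low cells. Gata6, the factor that begins the lineage, was above 0 in 12 of 42 high cells, at up to 16.0, and in 11 of 105 low cells, at up to 4.32. Its means were 2.13 in the high cells and 0.259 in the low cells, a log2 ratio of 3.04 that was above 0 in all 5 lanes (1.93 to 4.98). Gata4 was above 0 in 23 high and 37 low cells, at up to 19.6 in the high cells. Sox17 was above 0 in 3 high and 5 low cells. Pdgfra, a surface receptor of the lineage, was above 0 in 14 high and 23 low cells and reached 158 in the cell that ranked 3 by score; its log2 ratio was 2.58, above 0 in all 5 lanes. Sox7, another SOX factor of the lineage, was above 0 in 17 high and 54 low cells, at up to 98.3 in the high cells and 60.3 in the low cells (-0.03). Gata6 and Pdgfra were thus higher in mean in the high cells, at levels below the entry limit and with a median of 0 in both groups. Gata6 was above 0 in 10 of the 26 and 2 of the 16, and Pdgfra in 10 of the 26 and 4 of the 16.

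Of 26 effectors of primitive endoderm, 8 entered, 3 called higher and 2 lower, beside 11.6% and 6.01% of all genes. Lrp2, the endocytic receptor megalin, had a median of 112 and a highest level of 4330 in the high cells, against 22.2 and 606 in the low cells, a log2 ratio of 2.48 (0.83 to 4.68 over the lanes). Of its summed level in the high cells, 57.1% lay in 4 cells. In the 16 cells with higher Lama1 its ratio to the low cells turned to -0.89. Ctsl, a lysosomal protease, had 67.2 in the high cells and 30.3 in the low cells (1.18), and Podxl, a sialomucin of apical membranes, 63.3 in the high cells and 44.2 in the low cells (0.62). Called lower were Apoe, a lipid carrier, with medians of 106 in the high cells and 219 in the low cells (-0.79, but 0.03 in the 16), and Slc7a7, an amino acid transporter, with 37.0 in the high cells and 113 in the low cells (-0.94). The other 3 that entered, Stard8, Rhox5 and Apob, had log2 ratios of 0.20, -0.03 and -0.33. Below the limit, Dab2, an adaptor of endocytosis, had a median of 15.0 in the high cells and 4.58 in the low cells (1.56), and Cited1, a transcriptional coregulator, 6.33 in the high cells and 0 in the low cells (2.80). Both ratios were above 0 in all 5 lanes. Ttr, Afp, Apoa1 and Cubn, products of visceral endoderm, had a median of 0 in both groups. The median log2 ratio of the 10 regulators and effectors that entered was -0.18, beside -0.03 for all genes.

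Most measured genes of the parietal endoderm list were higher, but they were genes that other tissues use too. Of 17 members 8 entered, 7 were called higher and none lower, beside 11.6% and 6.01% of all genes. The list's median log2 ratio was 2.14. The 7 were the keratin pair Krt8 and Krt18, the actin-binding Cald1, the collagen chaperone Serpinh1, the linker Nid1, the laminin chain Lamb2 and the clotting inhibitor Tfpi, with ratios of 6.22, 5.74, 2.85, 2.60, 1.36, 1.17 and 0.75. Vim, a filament protein of mesenchymal cells, had 1.69 but was below 0 in 1 lane (-1.41) and was not called. Of the 9 members below the entry limit, 8 had a median of 0 in the high cells. The exception was the keratin Krt19, with a median of 33.3 in the high cells and 0 in the low cells. Its log2 ratio was 4.41, above 0 in all 5 lanes (2.56 to 6.16). Its median was 105.7 in the 26 and 1.03 in the 16. Thbd, Plat, Fst and Pth1r, also below the limit, had medians of 0 in both groups. Snai1 had 0 in the high cells and 2.11 in the low cells. Plat, a plasminogen activator, was above 0 in 17 high and 28 low cells and reached 94.4 in the high cells and 9.51 in the low cells (log2 ratio 2.68, above 0 in 4 lanes). Thbd, thrombomodulin, reached 95.6 in the high cells and 34.3 in the low cells (1.99, above 0 in 3 lanes). In the 16 cells with higher Lama1 the list's median ratio was 0.73, against 2.56 in the 26.

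Other basement membrane genes were called higher in 6 of the 12 that entered, with 1 lower, of 35 listed. Over all genes the shares were 11.6% and 6.01%. Hspg2, which encodes perlecan, had a lowest, median and highest level of 410.3, 1274 and 4638 in the high cells, against 29.1, 528 and 2014 in the low cells, a log2 ratio of 1.41 (0.93 to 1.84 over the lanes). Its medians were 2176 in the 26 and 885 in the 16. Nid1 had 157 in the high cells and 59.7 in the low cells (1.36), and its ratio in the 16 was 1.20. Pxdn, the peroxidasin that crosslinks type IV collagen, had a ratio of 1.36, Lamb2 1.17 and Lama5, the laminin alpha5 chain, 0.80, though Lama5 was at -0.02 in the 16. Ntn1, a netrin related to laminin, was lower, with a median of 2.60 in the high cells and 19.9 in the low cells (-0.93), and stood at 0.32 in the 16. Fn1, Agrn, Col18a1, Frem2 and Nid2 had ratios of 0.84, 0.45, -0.22, -0.48 and -0.50 and were not called. The network was thus not raised as a whole: Nid1 was called and Nid2 was not.

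Among the 5 genes whose level followed the score most closely over the 419 cells were the scaffold protein gene Ahnak (Spearman 0.48), Hspg2 and the myosin Myo1c (0.45 each) and the actin crosslinker Actn1 (0.44). Without the 42 high cells the values were 0.41, 0.36, 0.35 and 0.35.

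Genes that help cells fold and export collagen were partly higher. Of 26 with rows, 13 entered and 5 were called higher, beside 11.6% of all genes. Serpinh1, the collagen chaperone HSP47, had a lowest, median and highest level of 9.70, 127 and 1166 in the high cells, against 0, 32.1 and 146 in the low cells (2.60, and 2.21 to 2.89 over the lanes). Its medians were 238 in the 26 and 66.1 in the 16. Pcolce, an enhancer of collagen trimming, had a ratio of 1.37, the vesicle coat gene Sec24d 1.05 and the lysyl hydroxylases Plod2 and Plod3 0.93 and 0.77. Of 15 entered genes for protein folding and quality control in the endoplasmic reticulum, 3 were called higher (Sel1l 0.80, Pdia3 0.75, Dnajc3 0.69), and the median ratio was 0.33. Hspa5, the main chaperone of the stress response, had 468 in the high cells and 323 in the low cells (0.46), and Xbp1 28.6 in the high cells and 32.5 in the low cells (-0.21).

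Receptors that hold cells to the matrix were higher in 9 of 13 entered genes and lower in none, beside 11.6% and 6.01% of all genes. Their median log2 ratio was 1.24. Itga3, the integrin alpha3 chain that binds laminin, had a lowest, median and highest level of 10.7, 442 and 1504 in the high cells, against 2.26, 77.5 and 286 in the low cells (2.42, and 2.07 to 3.05 over the lanes). It had a median of 699 in the 26 and 137.7 in the 16. Itga5, which binds fibronectin, had 113 in the high cells and 47.0 in the low cells (1.85), but its ratio was 0.02 in the 16. Cd151, Ddr1, Itgav, Itgb1, Itga6, Dag1 and Bcam had ratios between 1.69 and 0.93. Itga9 and Sdc1 were not called, at 0.40 and 0.29. Proteins that link integrins to actin were higher in 10 of 14 entered genes, beside 11.6% of all genes, with a median of 1.12. Parva had 90.6 in the high cells and 9.99 in the low cells (3.03), and Vcl, vinculin, 184 in the high cells and 63.7 in the low cells (2.27), with ratios of 0.12 and 0.85 in the 16. Lims1 and Tns3 were not called, at 0.41 and -0.27.

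Contractile genes and targets of the factors SRF and YAP were higher in 15 of 17 entered and lower in none, beside 11.6% and 6.01% of all genes. Their median log2 ratio was 1.85. Of the 17, Acta2 and Anxa1 had a mean under 20 in the cells of neither group, entered through the high cells and had to differ; without them 13 of 15 were higher, with a median of 1.66. Acta2, smooth muscle actin, had the largest ratio of the named genes, 9.13, but its median was 1.67 in the high cells and 0 in the low cells, with a highest level of 9475 in the high cells and 35.5 in the low cells. Of its summed level in the high cells, 81.1% lay in 4 cells, so the ratio describes a few cells. Thbs1, a secreted matrix glycoprotein, had a median of 50.4 in the high cells and 2.31 in the low cells (5.73), with 68.4% of its sum in 4 cells. Tagln had 34.3 in the high cells and 2.09 in the low cells (4.57), and its ratio in the 16 turned to -0.57. Anxa1 had 42.1 in the high cells and 2.08 in the low cells (4.28). The common actins Actb and Actg1 had the smallest called ratios of the list, 0.74 and 0.69. Actins and keratins have near-identical copies, among which the authors' counting could split reads, so these levels are uncertain. Ajuba was at -0.18 and Ccn2 at 2.11, neither called.

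Pluripotency genes were lower as a group. Over all genes 6.01% were called lower and 11.6% higher, the shares to set beside each list here. Of 13 core genes, all of which entered, 9 were called lower and none higher, with a median log2 ratio of -0.67. Tdgf1, an epiblast co-receptor for Nodal, had a median of 53.2 in the high cells and 345 in the low cells (-1.02, but 0.07 in the 16), Sox2 31.4 in the high cells and 77.2 in the low cells (-0.99), and Pou5f1 126 in the high cells and 295 in the low cells (-0.71). Zfp281 and Dppa5a had -0.20 and -0.33. Of 13 naive genes 4 were called lower, among them Fgf4, the ligand that epiblast cells send to primitive endoderm, with 14.7 in the high cells and 103 in the low cells (-1.24). Nanog had a ratio of -1.19 but was at 0.02 in 1 lane and was not called. Of the 7 formative genes that entered, 3 were lower, with Etv5 at -1.005 and Dnmt3a at -0.82. In the 16 cells with higher Lama1 the core list had a median ratio of -0.05, with 1 gene called lower, and the naive list 0.37; in the 26 the values were -1.01 and -1.85.

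**Figure D4:**
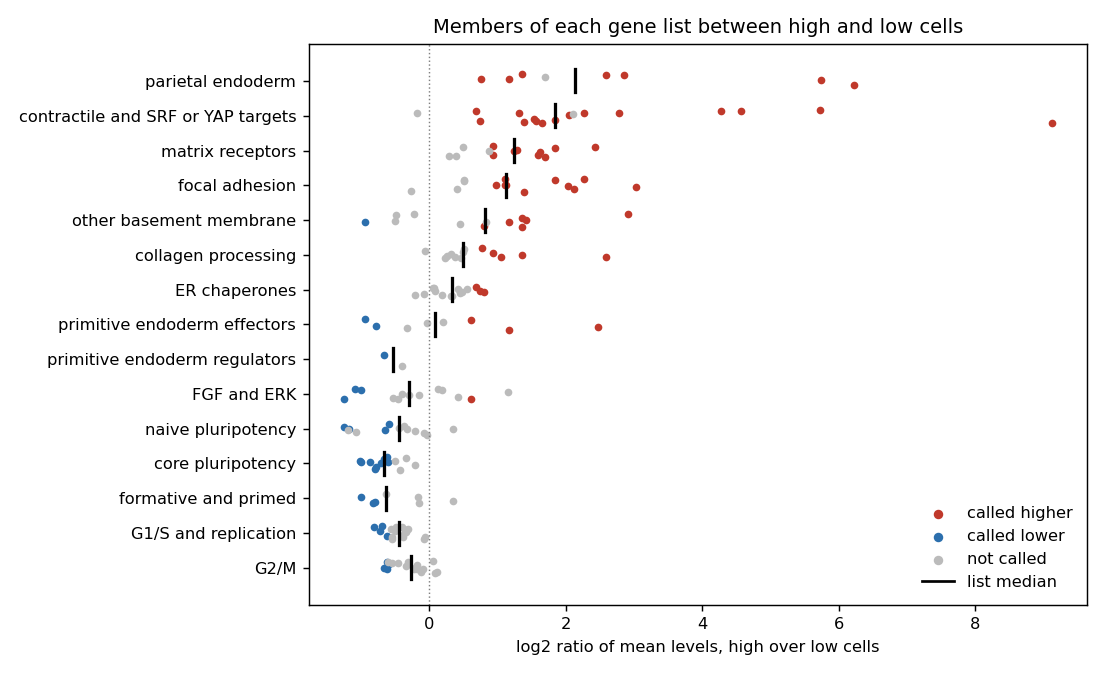
Log2 ratio of mean levels, high over low cells, for each list member that passed the entry limit; red points were called higher, blue lower and grey neither, and black bars are list medians. Matrix, adhesion and contractile lists lie to the right (medians up to 2.14), pluripotency lists to the left (core -0.67), and the primitive endoderm lists straddle 0 or lie to its left.

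Counted over cells, 19 of 42 high cells had Krt8 of at least 100 together with Pou5f1 under 100, against 2 of 105 low cells and 7 of the 272 in neither group, limits set after the values were seen. Krt8 alone reached 100 in 23 high cells, 4 low cells and 20 others. A level of Krt8 this high was therefore neither general in the high group nor confined to it.

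**Figure D5:**
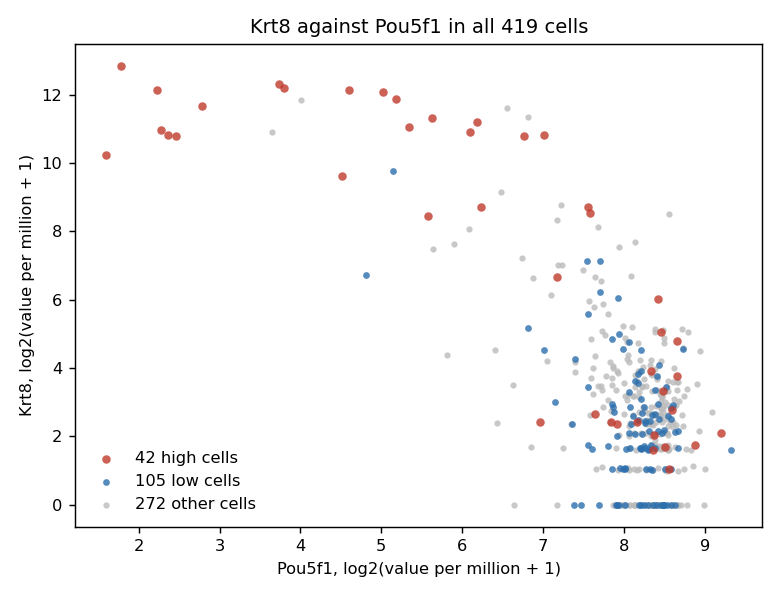
Pou5f1 (horizontal) against Krt8 (vertical) in all 419 cells, as log2(value per 1000000 + 1); red points are the 42 high cells, blue the 105 low cells and grey the 272 others. Of the high cells, 19 lie at the upper left, with Krt8 of at least 100 and Pou5f1 under 100, where 2 low cells lie.

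Lists of other tissues gave these values. Of 5 trophectoderm genes that entered, 2 were called higher, the same keratins Krt8 and Krt18, beside 11.6% of all genes. The lineage's factors were below the entry limit but higher in mean. Cdx2 and Elf5 averaged 3.91 and 3.92 in the high cells, against 0.316 and 0.715 in the low cells, with medians of 0 in both groups. Hand1, Gata3, Eomes and Tfap2a averaged 37.8, 15.1, 13.8 and 2.18 in the high cells, against 2.06, 2.33, 5.99 and 0.530 in the low cells. Hand1 reached 427 in the 26 and 95.6 in the low cells, but its median was 6.63 in the 26 and 0 in the 16 and the low cells. Eomes had medians of 3.29 in the 26, 2.26 in the 16 and 2.11 in the low cells. Tfap2a had a median of 0 in each of these sets. Gata3 was above 0 in 23 of the 26 and 5 of the 16. Of the fibroblast list, Acta2 and Col5a1 (2.92) entered, both through the high cells, so that they had to differ. The summed level of the 20 fibroblast genes ran from 23.5 to 13632 in the high cells, with a median of 116, against 1.09 to 148 with a median of 37.1 in the low cells. Among defining fibroblast genes Lum and Mgp were listed at 0 in every high and low cell. Col1a1, a chain of type I collagen, was above 0 in 20 high cells, at up to 2493, and in 17 low cells, at up to 11.7. Its highest levels, 2021 and 2493, were in the cells ranked 2 and 5 by score, which also had Vim at 3215 and 7175 and Col3a1 at 60.0 and 337.2. Col3a1 was listed at 0 in every low cell. Col1a2 reached 70.2 in the high cells and 6.27 in the low cells, and Col5a2 565 in the high cells and 7.50 in the low cells. Whether cells of another type lie among the high cells was not tested. In each high cell the 129 share of autosomal values without chromosome 12 lay between 47.6% and 52.2%, against 47.8% to 50.9% in the low cells. The neural list had Nes (1.94) and Tubb3 (1.63) higher, with -0.11 and -0.02 in the 16. Genes of the 2-cell-like state did not enter.

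Of 13 FGF and ERK genes, Fgfr1 alone was higher (0.61, but -0.02 in the 16), beside 11.6% of all genes. Fgf4, Spry4 (-1.09) and Etv5 were lower, beside 6.01%, where Spry4 and Etv5 are targets of ERK. Dusp5 and Etv4 had 1.16 and -0.14 and were not called. Of 6 TGF-beta and BMP genes 3 were higher, among them Id2 (1.25) and Smad7 (0.77); of the 5 with a mean of at least 20 in the cells of neither group, 2 were higher. Nodal and Bmp4 had -0.13 and -0.41. Of the retinoic acid genes, Rarg was lower (-0.90) and Rara, at -0.20, was not called. The mesendoderm list had 1 gene that entered, Foxh1, at -0.10.

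Of 18 replication genes 4 were called lower, beside 6.01% of all genes, including the cyclin gene Ccne1 (-0.81) and Ung (-0.72), and the list's median was -0.44. Gins2 and Rrm1 had -0.06 and -0.07. Of 18 mitotic genes 4 were lower, with Top2a at -0.67 and Ube2c at -0.62, while Cenpe and Ccnb2 had 0.12 and 0.08, and the median was -0.26.

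Among the 10 largest ratios of all called genes were those of Acta2, Krt8, Krt18, Thbs1, Tgm2 (4.91), Phldb2 (4.74), Tagln, Anxa1 and Flnc (3.91). Acta2, Tgm2, Phldb2 and Anxa1 averaged 10.4, 9.98, 12.3 and 10.4 in the cells of neither group, so they entered through the high cells and had to differ. Flnc, a muscle filamin, was the most evenly spread of these, with a median of 434 in the high cells and 23.3 in the low cells and 29.5% of its sum in 4 cells. In the 16, Phldb2, Tagln and Krt18 were below 0. The 10 lowest ran from Enpp3, a nucleotide-cleaving surface enzyme, at -3.39 to the zinc finger gene Zfp296 at -1.54. Enpp3 had a lowest, median and highest level of 0, 1.00 and 44.9 in the high cells, against 0, 47.8 and 262 in the low cells. Among those between them were Liph (-2.17), Pim2 (-2.12), Tdrd12 (-1.93), Rasgrp2 (-1.92), Mylpf (-1.68), Myrf (-1.57) and Hormad1 (-1.57). In the 16, Rasgrp2 was at -1.29.

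Features of the libraries moved with some of these results. Ribosomal RNA rows took a median of 12.3% of the total in the high cells and 16.3% in the low cells, lower in the high cells of every lane by 2.11 to 4.53 percentage points; the medians were 11.4% in the 26 and 14.4% in the 16. Cell totals had medians of 942330 in the high cells and 925100 in the low cells, and transcripts above 0 numbered 29570 in the high cells and 29265 in the low cells. On chromosome 12 beyond 80 Mb, where the line is mixed, 16 of 42 high cells and 42 of 105 low cells had a balanced 129 share (42% to 58%). Within the high group these were 14 of the 26 and 2 of the 16. The part of the ribosomal share and of chromosome 12 in the gene results was not tested, beyond the counts without ribosomal rows in the total, 723 higher and 510 lower.

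Promoter windows were searched for 3 motifs. Of the 6 ranking genes, 4 matched the RefSeq promoter table. On either strand, none of their windows held GATAA, from the motif of GATA factors, the CArG box bound by SRF, or the TEAD core letters GGAATG. Windows of Acta2, Flnc, Anxa1, Krt8, Krt18 and Phldb2 held no CArG box either. The CArG box was in at least 1 window of 17 of 610 genes called higher (2.79%) and 2 of 286 called lower (0.70%). Among all entered genes it was in 84 of 5131 (1.64%). These are shares of the genes with a window in that table. GATAA was in 18.0%, 17.1% and 17.9% of the same sets, and GGAATG in 17.4%, 18.9% and 13.4%. The motifs were chosen after the gene results were known, and the shares are descriptions.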

How the data were processed

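The authors deposited 2 tables, 1 per allele, with 117762 Ensembl transcripts and 419 cells. The deposited score values are whole numbers that the authors scaled to nearly common cell totals before deposit, as read from the values; the tool was not given in the sources used here. They are not raw counts, so no count test was used, and depth in reads is unknown. Bowtie 1.1.2 and build mm10 are named, without role, in the submitters' processing notes. Rows were joined to genes by transcript ID in GENCODE vM21 (116919 matched; unmatched rows hold 0.36% of values), summed per gene over both tables and given per 1000000 of the cell total. Groups, ratios, entry limit and calls are as stated in the report; the 6 ranking genes stayed out of the counts. With 1 cell per library, no doublet caller was run. Python 3.11.15, numpy 2.4.6, pandas 2.3.3 and matplotlib 3.10.9 were used.

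The members and the 23 gene lists were chosen with earlier results of these data known. Named genes were the 6; all entered members of the primitive endoderm, parietal endoderm and other basement membrane lists, with the defining regulators that did not enter; the 10 highest and 10 lowest called ratios; the 2 highest and 2 lowest of each other list; and the 5 most alike to the score. Other genes were chosen after their values were seen (Pou5f1, Nanog, Hspa5, Xbp1, Krt19, further called members, and markers of other tissues). So were the split by Lama1, the 18 highest scores, the limits of 100, the allele pairs, the motifs and the alternatives named as added. Some genes that the rule names are not reported here.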

Additional observations from a re-analysis of the deposited data

How the results depend on the processing

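Calls of 11.6% higher and 6.01% lower became 5.69% and 1.38% with the 105 highest cells, 4.81% and 1.26% at a fold of 2, 14.4% and 6.08% with entry at a mean of 5, 6.95% and 4.34% with no entry limit, and 2.05% and 1.38% in the 16 high cells with Lama1 at or above its median, all as shares of the genes that entered. Ranking without Lama1 gave 9.16% lower (602 genes). Leaving out each lane gave 11.4% to 12.2% higher and 6.03% to 7.85% lower, where fewer lanes must concur. The primitive endoderm median of -0.18 ranged from -0.35 to 0.02 without 1 lane, the last without lane 5. The Lama1 ratio read from the other 5 genes was 0.21 with the 105 highest cells and -2.90 as a ratio of medians, and the Col4a1 ratio was 2.94 with the 105 highest cells; the cause was not tested. In the 16 cells, 11 of the 57 named genes that were called changed sign, and 15 of the 37 that were not. The 11 were Apoe 0.030, Nes -0.11, Lama5 -0.016, Ntn1 0.32, Krt18 -0.22, Lrp2 -0.89, Fgfr1 -0.021, Tagln -0.57, Tdgf1 0.073, Phldb2 -0.33 and Tubb3 -0.024. The split by Lama1 and the ranking without it were added after the data were seen. No paired analysis was possible because the cells form 1 group with no replicate numbers. Without cultures named, spread between cultures is unknown.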
